A study of Mus musculus with 8 samples.

Results

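Annexins are proteins that bind the phospholipids of cell membranes when calcium rises, and S100a10 is the small S100 protein that pairs with annexin A2. The genes described here are Anxa1, Anxa2, Anxa3, Anxa4, Anxa5, Anxa6, Anxa7, Anxa8, Anxa11 and S100a10, chosen by family membership and by the Anxa2 partnership. They are 10 of the 31053 gene identifiers that were counted. Of the 10, 9 passed a filter of at least 1 CPM, a count scaled to its library's total, in each of 4 or more libraries, and so were among the 13813 genes tested. Anxa8 did not pass.

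The data came from 8 QuantSeq libraries, which sequence the 3′ end of polyadenylated RNA, made from eyecups of mice at postnatal day 11 with 30 ng of RNA each. The controls were 4 libraries of Bbs8+/+ wild-type littermates of strain C57/Bl6, and the 4 others came from Bbs8-/- mice of the same strain and age. Bbs8, listed in the annotation as Ttc8, encodes a subunit of the BBSome, a protein complex that moves cargo to and from the cilium. The deletion was germline, so every cell type of the eye lacked the gene, and no animal was treated. The methods counted each animal as a biological replicate. The label names the retinal pigment epithelium (RPE), the pigmented layer behind the photoreceptors, yet the sampled tissue was the eyecup left after muscle, fat, cornea, lens, retina and optic nerve had been removed, which holds choroid and sclera as well.

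Annexins share a core of repeats that docks on acidic phospholipids, and differ in their N-terminal tails, which bind partners such as S100 proteins. They work in exocytosis, endosome transport, membrane repair and the organisation of actin at the membrane. In the RPE, annexin A2 has been linked to the transport of ingested outer segment material, and annexin A5 to the clearance of cells and membrane that expose phosphatidylserine.

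Among the 9 tested genes, Anxa2 was the only one that passed the threshold of a false discovery rate (FDR) of 0.05 in edgeR's quasi-likelihood test with Benjamini-Hochberg adjustment over all tested genes. It was up-regulated in Bbs8-/- eyecups by 17.5% of its mean, from 251 ± 8.46 to 295 ± 3.78 CPM (SD, n = 4 per genotype), at an FDR of 0.0498. Over all tested genes 152 (1.10%) were higher and 157 (1.14%) were lower, so that with 1 higher and 0 lower genes among 9 the result is that of a single gene and not of the family. The call did not hold in 12 of 17 alternative analyses, in which the Anxa2 estimate kept its sign and size but the FDR lay between 0.0664 and 0.135. The median log2 fold change (Bbs8-/- over Bbs8+/+) of the 9 tested genes was -0.09, beside -0.0041 for all tested genes. Estimates were positive for 4 of them and negative for 5. At an unadjusted p under 0.05, without regard to direction, 1 of the 9 passed (Anxa2), beside 1792 (12.97%) of all tested genes.

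Libraries held between 1636725 and 2884983 counts on genes and detected between 15209 and 15637 genes. In a library of this size 3 counts, the limit that a count of 0 allows, correspond to 1.04 to 1.83 CPM, which covers counting error only. The share of reads that fell on no gene was 42.15% to 43.41% in Bbs8+/+ and 44.14% to 44.39% in Bbs8-/-, without overlap, and its part in the results was not tested. Ttc8 itself lay between 14.7 and 21.7 CPM in the Bbs8+/+ libraries and between 2.30 and 9.72 CPM in the Bbs8-/- libraries (log2 fold change -1.95, SE 0.317, FDR 2.75e-06, edgeR), the highest Bbs8-/- value being that of replicate 1. Xist and Y-linked transcripts were both counted in every library, with 690 ± 44.3 and 589 ± 24.7 CPM of Xist and 61.4 ± 2.77 and 114 ± 6.24 CPM summed over 4 Y-linked genes in Bbs8+/+ and Bbs8-/- (SD, n = 4). The Bbs8-/- libraries were thus lower in Xist and higher in Y-linked transcripts, without overlap, so that the sex-linked transcripts differed between the groups compared, and their part in the results was not tested. If libraries pooled animals, the p-values below measure the spread between pools.

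The promoters of Anxa2 and Anxa1 are shown because Anxa2 was the gene past the threshold, and Anxa1 was the member with the largest difference in the other direction among those above a few counts per library. Both windows run from 250 bases before to 50 bases after the RefSeq start on GRCm38.p6, 5′ to 3′ on the gene's strand. Capitals mark the TATA-box core TATAAA and the AP-1 consensus TGAGTCA, searched on both strands.
Anxa2, chr9:69453433-69453732, plus strand: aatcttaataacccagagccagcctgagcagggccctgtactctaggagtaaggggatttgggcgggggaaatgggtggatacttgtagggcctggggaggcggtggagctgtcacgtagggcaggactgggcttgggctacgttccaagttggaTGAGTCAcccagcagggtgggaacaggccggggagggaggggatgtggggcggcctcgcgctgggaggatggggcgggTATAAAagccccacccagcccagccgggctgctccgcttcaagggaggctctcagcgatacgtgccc
Anxa1, chr19:20390622-20390921, minus strand: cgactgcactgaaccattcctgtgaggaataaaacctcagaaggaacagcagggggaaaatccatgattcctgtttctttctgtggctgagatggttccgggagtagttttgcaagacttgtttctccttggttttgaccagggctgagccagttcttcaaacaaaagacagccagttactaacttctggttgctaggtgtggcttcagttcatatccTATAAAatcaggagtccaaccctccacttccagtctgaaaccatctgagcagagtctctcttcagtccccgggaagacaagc

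The TATAAA letters began 17 bases before the listed start of Anxa2 and 32 bases before that of Anxa1. TGAGTCA, the letters bound by Fos and Jun proteins, began 95 bases before the start of Anxa2. RefSeq windows were matched for 7 of the 10 genes (9 windows), and the windows of Anxa4, Anxa5, Anxa7, Anxa8 and Anxa11 held neither motif. Of all 32851 promoter windows, 4473 (13.6%) held TATAAA and 1709 (5.20%) held TGAGTCA. These are matches of letters and not measured binding.

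Annexin A2 and S100a10 form a tetramer in which a pair of S100a10 molecules holds a pair of annexin A2 molecules at the membrane. S100a10 is unusual among S100 proteins in that it does not need calcium to bind its partner. The Anxa2 gene (ENSMUSG00000032231) spans chr9:69453620-69491795 on the plus strand of GRCm38. In Bbs8+/+ replicates 1 to 4, Anxa2 was at 242.5, 256.0, 260.6 and 245.8 CPM. The Bbs8-/- replicates gave 296.4, 289.7, 298.6 and 295.6 CPM. Every Bbs8-/- library lay above every Bbs8+/+ library, and the libraries of each genotype were close together. The log2 fold change was 0.23 (SE 0.0698, 95% interval 0.09 to 0.37, edgeR). These values rest on 557 to 703 counts per Bbs8+/+ library and 488 to 650 counts per Bbs8-/- library. The coefficient of variation was 3.37% in Bbs8+/+ and 1.28% in Bbs8-/-, under the 4.02% and 4.15% that counting alone gives at these depths. Anxa2 is among the genes the study itself names, so its direction is not independent evidence.

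S100a10 (ENSMUSG00000041959, chr3:93555080-93564643, plus strand) did not pass the test. Its Bbs8+/+ values were 72.9, 68.9, 72.0 and 66.8 CPM. Its Bbs8-/- values were 80.2, 50.7, 60.2 and 73.9 CPM. The 4 control libraries were alike, whereas the Bbs8-/- libraries spread on both sides of them, replicate 2 being the lowest and replicate 1 the highest of all 8. The means were 70.2 ± 2.84 and 66.2 ± 13.3 CPM (SD, n = 4), with a log2 fold change of -0.09 (95% interval -0.34 to 0.16, FDR 0.848, edgeR). Without Bbs8-/- replicate 2 the estimate was 0.02. The coefficient of variation in Bbs8-/- was 20.1%, beside 8.79% from counting alone, and in Bbs8+/+ it was 4.05% beside 7.62%.

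Because both partners are read in the same library, their ratio does not depend on the depth. The number of S100a10 counts per Anxa2 count was 0.301, 0.269, 0.276 and 0.272 in the Bbs8+/+ libraries and 0.270, 0.175, 0.202 and 0.250 in the Bbs8-/- libraries. Bbs8-/- replicate 1 lay just above the lowest control, so that the genotypes overlapped there, and the 3 other Bbs8-/- libraries lay below all controls. The mean ratio was 0.280 ± 0.0144 for the controls and 0.224 ± 0.0437 for the knockouts (SD, n = 4), a difference of -0.0552 with a two-sided exact permutation p of 0.0571. The smallest p that 4 libraries against 4 allow is 0.0286, and an adjusted p under 0.05 needed both ratio tests to reach it.

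Anxa2 made up 34.4%, 33.5%, 36.2% and 34.8% of all counts on the 9 annexins in the Bbs8+/+ libraries. In the Bbs8-/- libraries it made up 38.6%, 39.5%, 38.5% and 38.0%. The genotypes did not overlap, with a mean of 34.7% ± 1.10 for the controls and 38.6% ± 0.616 for the knockouts (SD, n = 4). The difference of 3.90 percentage points had a two-sided exact permutation p of 0.0286, the smallest the design allows, and an adjusted p of 0.0571 over the 2 ratio tests. Summed over the 9 annexins, expression lay between 705 and 763 CPM in Bbs8+/+ and between 734 and 778 CPM in Bbs8-/-, and these ranges overlapped. The mean share of Anxa5 was 23.6% in Bbs8+/+ and 21.0% in Bbs8-/-, and that of Anxa6 was 25.9% and 25.4%.

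**Figure D1:**
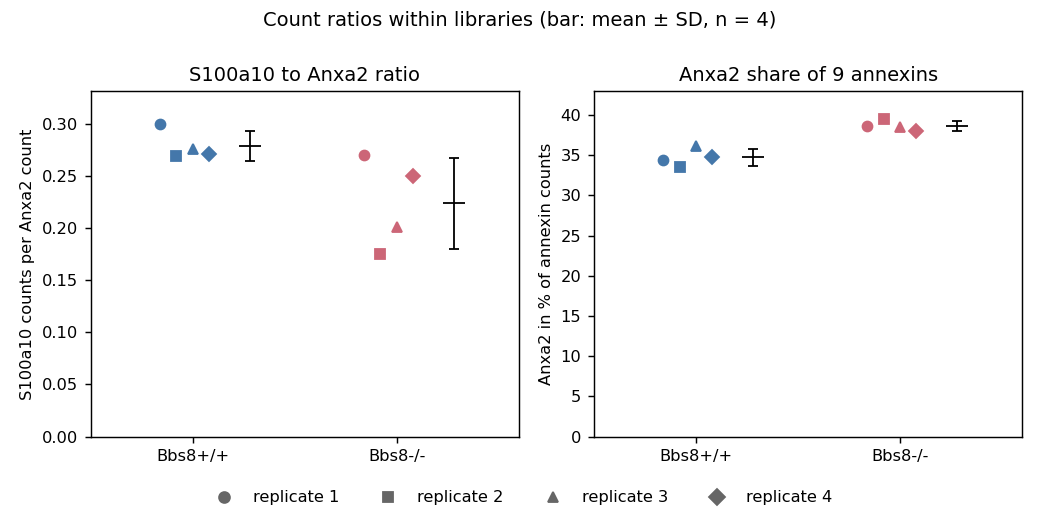
S100a10 counts per Anxa2 count (left) and the Anxa2 share of counts on the 9 annexins in percent (right), with 1 point per library, 4 of each genotype, and the mean ± SD. The ratio of Bbs8-/- replicate 1 (0.270) reaches into the control range, whereas all 4 Bbs8-/- shares (38.0% to 39.5%) lie above the control shares (33.5% to 36.2%).

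Anxa5 encodes the annexin best known for binding exposed phosphatidylserine, and Anxa6 encodes an annexin with a doubled core that acts in endosome and cholesterol transport. Anxa5 (ENSMUSG00000027712, chr3:36448923-36475894, minus strand) was at 162.7, 192.6, 153.4 and 176.2 CPM in Bbs8+/+. In Bbs8-/- it was at 164.0, 138.6, 161.7 and 179.6 CPM. The genotypes overlapped over most of their range, and the log2 fold change was -0.09 (95% interval -0.26 to 0.08, FDR 0.738, edgeR). It moved between -0.02 without Bbs8-/- replicate 2 and -0.15 without Bbs8-/- replicate 4. Anxa6 (ENSMUSG00000018340, chr11:54979108-55033445, minus strand) was at 195.5, 199.7, 200.7 and 155.6 CPM in Bbs8+/+. In Bbs8-/- it was at 188.9, 189.8, 205.3 and 190.8 CPM. Of the 8 libraries, 7 lay close together and Bbs8+/+ replicate 4 lay below them. The log2 fold change was 0.05 (95% interval -0.11 to 0.21, FDR 0.871), and -0.03 without that library. A log2 change beyond 0.26 in either direction lay outside the intervals of both genes.

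Anxa3, Anxa4 and Anxa7 were read from fewer counts. Anxa3 (ENSMUSG00000029484, chr5:96793339-96845966, plus strand), an annexin of neutrophil granules, was at 42.3, 42.9, 36.5 and 38.1 CPM in Bbs8+/+. In Bbs8-/- it was at 50.4, 50.7, 42.3 and 45.8 CPM. Only the lowest Bbs8-/- library, replicate 3, reached into the control range. Its log2 fold change of 0.24 was as large as that of Anxa2, but with an SE of 0.151 its interval ran from -0.06 to 0.54 (FDR 0.536, edgeR).

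Anxa4 (ENSMUSG00000029994, chr6:86736840-86793584, minus strand), an annexin of epithelial membranes, was at 22.9, 19.7, 21.5 and 21.3 CPM in Bbs8+/+. In Bbs8-/- it was at 13.97, 14.6, 19.3 and 18.2 CPM. All Bbs8-/- libraries were lower than all controls, although the highest Bbs8-/- library nearly met the lowest control. The log2 fold change was -0.36 (SE 0.225, 95% interval -0.80 to 0.09, FDR 0.535, edgeR), from 46 to 61 counts per control library and 23 to 42 per Bbs8-/- library. After the libraries were thinned to the smallest total, the estimate was -0.17.

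Anxa7 (ENSMUSG00000021814, chr14:20455260-20480133, minus strand), known as synexin for its role in membrane fusion, was at 23.3, 34.7, 28.5 and 51.0 CPM in Bbs8+/+. In Bbs8-/- it was at 40.1, 39.2, 34.0 and 37.4 CPM. The controls spread on both sides of the Bbs8-/- libraries, with a coefficient of variation of 35.0% beside 10.7% from counting alone. The log2 fold change was 0.11 (95% interval -0.23 to 0.45, FDR 0.863, edgeR), and it ranged from -0.03 without Bbs8+/+ replicate 1 to 0.38 without Bbs8+/+ replicate 4 (FDR 0.406).

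Anxa1 (ENSMUSG00000024659, chr19:20373428-20390944, minus strand) encodes a glucocorticoid-induced annexin whose N-terminal peptide binds formyl peptide receptors on leukocytes. It was at 13.4, 13.4, 17.8 and 17.5 CPM in Bbs8+/+. In Bbs8-/- it was at 9.72, 11.0, 12.4 and 10.8 CPM. The genotypes did not overlap, and the lower mean was that of Bbs8-/-, at 11.0 ± 1.10 beside 15.5 ± 2.45 CPM (SD, n = 4). The log2 fold change was -0.49 (SE 0.268, 95% interval -1.02 to 0.04, FDR 0.441, edgeR), from 16 to 50 counts per library. Of its receptors, Fpr3 had 0 counts in every library, Fpr1 at most 2 and Fpr2 at most 7, so that none of the 3 could be tested.

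Among the 9 tested genes, Bbs8-/- and Bbs8+/+ values were fully separate for 1 higher gene (Anxa2) and for 2 lower genes (Anxa1 and Anxa4). Over all tested genes, 500 (3.62%) did not overlap with Bbs8-/- higher and 519 (3.76%) with Bbs8-/- lower. These small counts are values of single genes and not a property of the family.

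**Figure D2:**
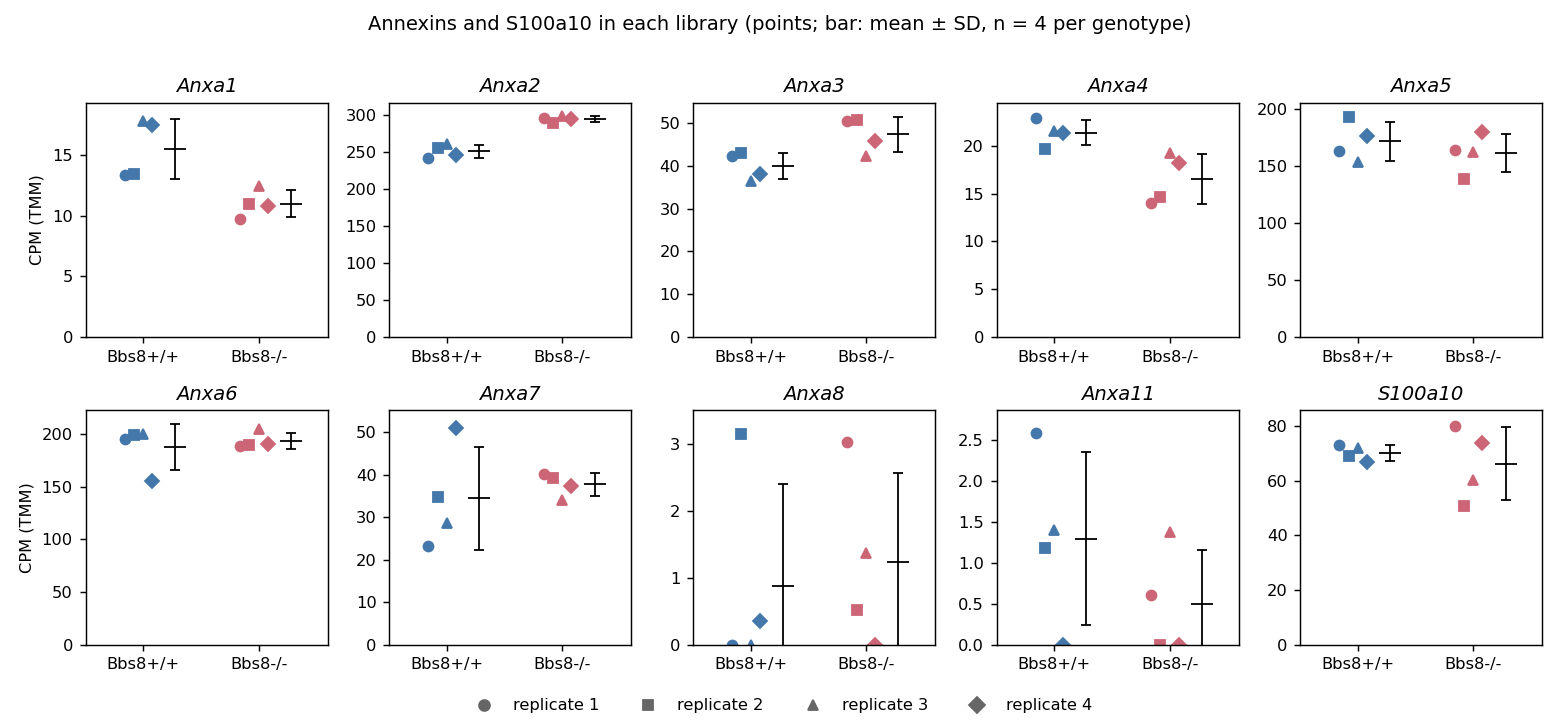
CPM of each of the 10 genes, a panel per gene with its own axis from 0, with 1 point per library (4 Bbs8+/+ and 4 Bbs8-/-) and the mean ± SD beside them. Anxa2 is separated upward in Bbs8-/- (289.7 to 298.6 against 242.5 to 260.6 CPM), Anxa1 and Anxa4 are separated downward, and the other genes overlap.

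Anxa8 and Anxa11 were at the limit of detection. Anxa8 (ENSMUSG00000021950, chr14:34085981-34100571, plus strand), an annexin of late endosomes, had 0, 8, 0 and 1 counts in Bbs8+/+ and 5, 1, 3 and 0 in Bbs8-/-, 9 in all for each genotype. Anxa11 (ENSMUSG00000021866, chr14:25842156-25886804, plus strand), which tethers RNA granules to lysosomes and binds the S100a6 protein, had 6, 3, 3 and 0 counts in Bbs8+/+ and 1, 0, 3 and 0 in Bbs8-/-. No difference was detectable for either gene at this depth. Anxa11 passed the filter mainly through the Bbs8+/+ libraries, and its log2 fold change of -1.22 had an interval from -3.29 to 0.86 (FDR 0.695, edgeR).

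**Figure D3:**
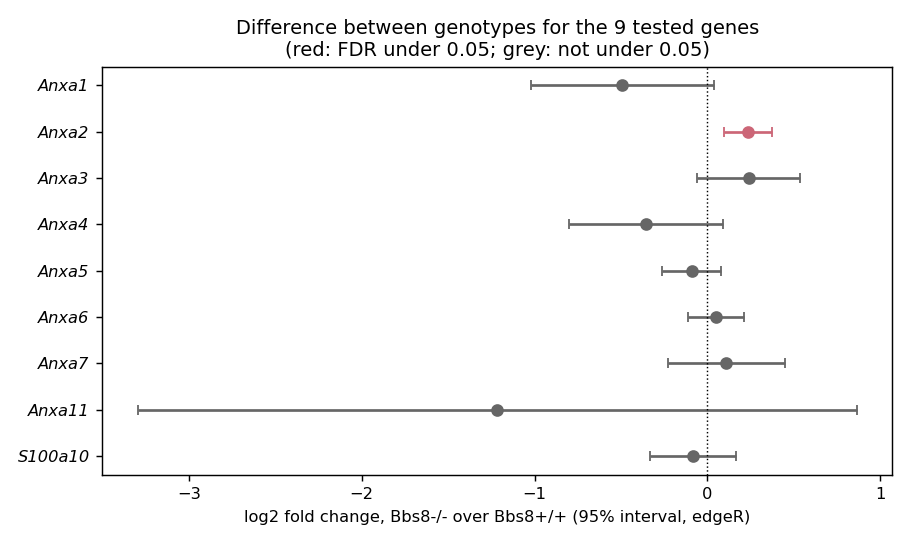
Log2 fold change (Bbs8-/- over Bbs8+/+) of the 9 tested genes with 95% intervals from edgeR. The interval of Anxa2 (0.09 to 0.37) lies above 0 and the 8 others include 0, with Anxa11 the widest (-3.29 to 0.86).

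Of the other annexins, Anxa10 had 0 counts in all libraries and Anxa13 was not analysed here. Anxa9, an annexin that lacks the usual calcium-binding sites, had 6, 4, 3 and 9 counts in Bbs8+/+ and 6, 12, 13 and 11 in Bbs8-/-. In CPM the genotypes did not overlap, at 2.18 ± 0.831 and 5.26 ± 1.18 (SD, n = 4), but the log2 fold change of 1.24 (95% interval 0.15 to 2.33) had an FDR of 0.295 (edgeR). The 3′ end of Anxa9 overlaps Mindy1 on the other strand.

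Antisense genes overlap the last 500 bases of Anxa1, Anxa4 and Anxa8. They are 1500015L24Rik, Gm44036 and A630023A22Rik, and each had 0 counts in every library. The strand setting used for counting was not given in the sources used here, so reads of these genes and of their partners could not be told apart. Apart from Gm44036, which matches 78 bases of the Anxa4 end on the opposite strand, no other transcript matched the last 300 bases of any of the 10 genes at 90% identity over 75 bases.

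The other S100 genes hold the partners of several annexins. Of 14 listed, 8 were tested, 0 were higher and 1 was lower, S100b, with a median log2 fold change of 0.10. At an unadjusted p under 0.05 the count was 4 of 8 (S100b, S100a1, S100a8 and S100a11), beside 12.97% of all tested genes. Of these, S100a8 passed the filter only with the Bbs8-/- libraries, which favours a higher estimate. S100b, a calcium-binding S100 protein abundant in glia and pigment cells, was at 246, 235, 300 and 253 CPM in Bbs8+/+ and at 189, 177, 190 and 193 CPM in Bbs8-/-. The genotypes did not overlap, and S100b fell by 0.46 on the log2 scale (SE 0.0772, FDR 5.56e-06, edgeR). It is also a gene of the study's own lists and so not independent evidence. In the same eyecups, the summed level of 10 melanocyte markers was 14077 to 14780 CPM in Bbs8+/+ and 11670 to 12250 CPM in Bbs8-/-. Most of that sum was Dct, which the RPE expresses as well. The part of melanocytes in the S100b values was not tested.

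The S100 partners known for Anxa1, Anxa2 and Anxa11 did not pass the test. S100a6, a partner of Anxa11 and Anxa2, was at 287 ± 18.4 CPM in the controls and 310 ± 15.4 CPM in the knockouts (SD, n = 4), with a log2 fold change of 0.11 (FDR 0.522, edgeR). S100a11, the partner of Anxa1, was at 154 ± 9.67 and 133 ± 24.7 CPM, with a log2 fold change of -0.20 (95% interval -0.38 to -0.02 before adjustment, FDR 0.330). As for S100a10, its Bbs8-/- libraries were the more spread. S100a4, which also binds annexin A2, was at 32.6 ± 9.60 and 36.3 ± 5.07 CPM (log2 fold change 0.16, FDR 0.790). S100a5, S100g and S100z had 0 counts in every library, and S100a8, a neutrophil S100 protein, had 1 to 3 counts in Bbs8+/+ and 3 to 9 in Bbs8-/- (FDR 0.149).

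At the cell surface the annexin A2 and S100a10 complex brings together plasminogen and its activator tPA, the product of Plat. Plat was at 12.5 ± 1.48 CPM in the controls and 10.1 ± 4.05 CPM in the knockouts (SD, n = 4; log2 fold change -0.31, 95% interval -0.89 to 0.27, FDR 0.740, edgeR). Plg, the plasminogen gene itself, had 0 counts in all 8 libraries. Of 13 listed genes of the plasminogen system 9 were tested, and 0 passed in either direction at a median log2 fold change of 0.04. The count at an unadjusted p under 0.05 was 1 of 9 (Eno1, a plasminogen-binding surface enolase), near the 12.97% of all tested genes, and DESeq2 called 0.

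Annexins A1, A2, A5 and A6 gather at torn plasma membrane with dysferlin, calpains and the ESCRT machinery. Of 18 listed genes of membrane repair 17 were tested and 0 passed, with a median log2 fold change of -0.07. An unadjusted p under 0.05 was found for 4 of the 17 (Ahnak, Cav1, Capns1 and Pdcd6ip), beside 12.97% of all tested genes, and DESeq2 called 0. Ahnak, a giant scaffold protein that S100a10 and annexin A2 carry to the membrane, was at 631 ± 22.8 and 575 ± 36.9 CPM (SD, n = 4; log2 fold change -0.13, FDR 0.265, edgeR). Of 15 other partners of S100a10 or Anxa2, a list that shares Ahnak, Dysf and Plat with those above, 10 were tested and 0 passed, at a median of -0.14. There the count at an unadjusted p under 0.05 was 2 of 10 (Ahnak and Rack1), beside the same 12.97%, and DESeq2 called 1 (Rack1, log2 fold change 0.20). The copines, another family of calcium-dependent phospholipid-binding proteins, had 4 of 9 members tested, of which 0 passed in edgeR, 0 had an unadjusted p under 0.05 and 0 were called by DESeq2.

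Annexins are present in most cell types of the eyecup, so the makeup of the tissue stands beside the Anxa2 values. RPE transcripts were present in the tissue. Rpe65, the retinoid isomerase, had a mean of 2002 CPM in the controls and 1827 CPM in the knockouts. Ttr, the thyroxine carrier transthyretin, was at 10955 and 11676 CPM. Best1, another RPE marker, was near the limit of detection, at 0.741 and 2.18 CPM. The summed level of 10 RPE markers was 17720 to 18808 CPM in Bbs8+/+ and 19078 to 19461 CPM in Bbs8-/-, with 1 of 10 higher (Otx2) and 1 lower (Mitf) in edgeR and 3 called by DESeq2. Ttr made up most of that sum, and Rpe65 and Lrat had estimates in the other direction, of -0.13 and -0.10 on the log2 scale (FDR 0.0842 and 0.547, edgeR). Fewer cells of a type and less RNA per cell cannot be told apart in whole eyecups.

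Other marker sums also moved with genotype. For macrophages and microglia, 2 of 10 markers were higher (Csf1r and Lyz2) and the sum was 467 to 518 CPM in Bbs8+/+ and 570 to 603 CPM in Bbs8-/-. For lens, 5 of 10 were higher (Cryaa, Cryba1, Cryba4, Crybb1 and Crybb3), with sums of 207 to 236 and 347 to 370 CPM. DESeq2 called 3 of these 5 and gave Cryba4 and Crybb1 no adjusted p. Cryba4 and Crybb1 passed the filter only with the Bbs8-/- libraries, which favours a higher estimate. Cryab, most of the lens sum in Bbs8+/+, had an estimate of -0.15 (FDR 0.484, edgeR). Mip, Lim2, Bfsp1 and Bfsp2 had positive estimates and did not pass (FDR 0.776, 0.734, 0.102 and 0.782, edgeR). For fibroblasts and sclera, 3 of 10 were lower (Col1a1, Col1a2 and Col3a1), with sums of 35251 to 37058 and 27811 to 29005 CPM. Col1a1 and Col1a2 carried most of that sum, whereas Dcn, the small proteoglycan decorin, was at 5678 to 6024 and 6120 to 6408 CPM (log2 fold change 0.09, FDR 0.174, edgeR), and Lum and Fmod had estimates of 0.12 and 0.02. These 3 sums did not overlap between genotypes, upward for the first pair of lists and downward for the last. Endothelial markers overlapped, at 916 to 954 and 938 to 1010 CPM with 1 of 10 higher (Egfl7). For surface epithelium, a tissue that typically expresses Anxa1, Anxa2 and Anxa8, 5 of 10 markers could be tested, 3 were lower (Krt15, Krt13 and Krt6a), Krt14 was at 0 throughout, and the sums were 110 to 123 and 103 to 134 CPM. Those sums were mostly Dsp and Perp, at 60.5 and 38.3 CPM in Bbs8+/+ and 68.6 and 42.7 CPM in Bbs8-/-, and the keratins did not follow them. Over the 4 Bbs8+/+ libraries Krt15 had 55 counts, Krt6a 33, Krt5 28, Krt13 22 and Krt4 19, and over the 4 Bbs8-/- libraries Krt15 had 2 and the other four had 0. The 3 called keratins passed the filter through the Bbs8+/+ libraries alone, and so could only come out lower, and DESeq2 gave none of them an adjusted p.

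Smooth muscle and pericyte markers summed to 1433 to 1451 CPM in Bbs8+/+ and 1276 to 1353 CPM in Bbs8-/-, with 1 of 10 lower (Rgs5). Rgs5 was at a mean of 715 and 599 CPM, the largest part of that sum. Acta2 went the other way, at 243.7 to 261.5 and 263.2 to 282.0 CPM (log2 fold change 0.10, FDR 0.592, edgeR). Of the 10 estimates, 4 were positive and 6 negative. Skeletal muscle markers overlapped, at 1906 to 2033 and 1979 to 2170 CPM with 0 of 10 past the threshold in edgeR, 2 at an unadjusted p under 0.05 and 0 called by DESeq2. Among melanocyte markers 6 of 10 were lower (Dct, Pmel, Mlana, Tyrp1, Ednrb and Slc45a2). Most of these are pigment genes that the RPE also expresses, and Dct made up most of the sum, whereas Sox10, Kit and Mc1r had estimates of -0.05, -0.03 and 0.21 (FDR 0.878, 0.974 and 0.872, edgeR). The part of any of these cell types in the Anxa2, Anxa1 or Anxa4 values was not tested.

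**Figure D4:**
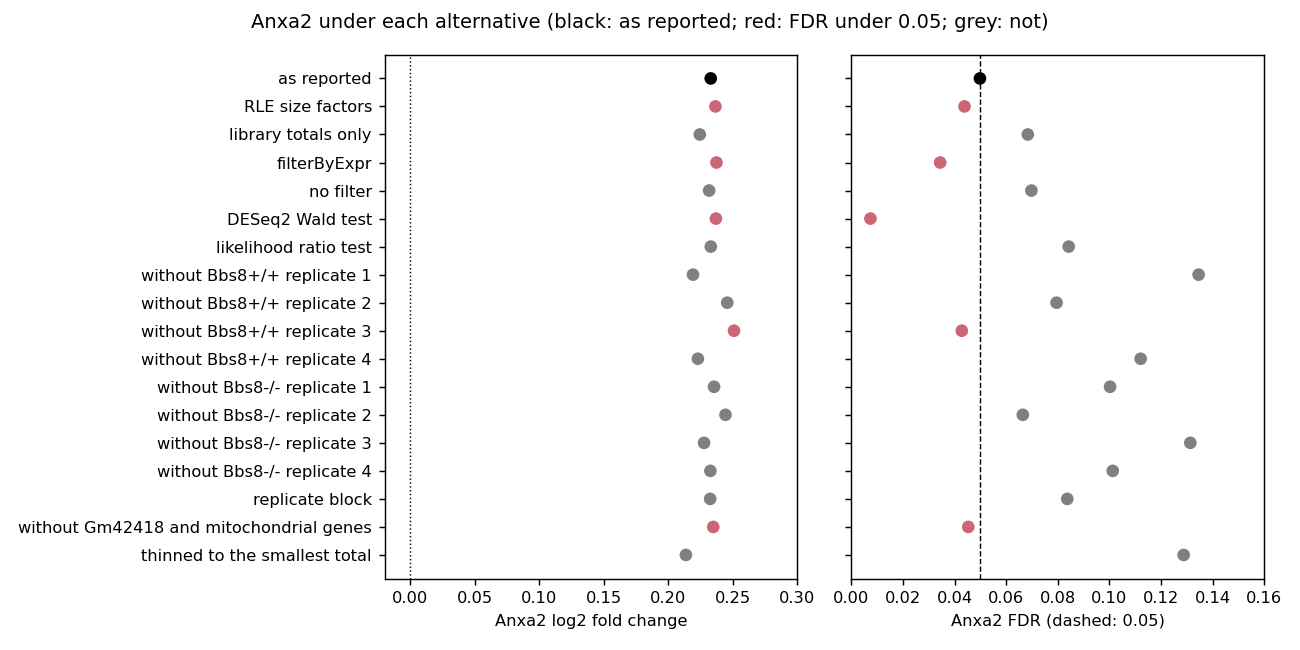
Anxa2 under the main analysis and the 17 alternatives, with the log2 fold change (Bbs8-/- over Bbs8+/+) on the left, the FDR on the right and the threshold of 0.05 as a dashed line. The estimate stays between 0.21 and 0.25, whereas the FDR lies on both sides of the threshold, past it in 5 of the 17 alternatives.

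Leaving out any single library except Bbs8+/+ replicate 3 moved the FDR of Anxa2 above 0.05, to 0.135 without Bbs8+/+ replicate 1, 0.0795 without replicate 2 and 0.112 without replicate 4. Without Bbs8-/- replicates 1 to 4 in turn the FDR was 0.100, 0.0664, 0.131 and 0.101. None of the other 8 tested genes passed the threshold in any alternative that gave it an adjusted p, which was all 17 for 6 of them, 16 for Anxa1 and 10 for Anxa11.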

How the data were processed

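Eyecup RNA of Bbs8+/+ and Bbs8-/- mice was analysed, in 4 libraries each. Per the study's methods, the authors trimmed the QuantSeq reads with BBDuk, aligned them with STAR to mm10 and assigned them to genes with htseq-count. The deposited values are raw counts of uniquely assigned reads per Ensembl gene, without normalization. Reads with no feature (42.1% to 44.4% of each library) and ambiguous reads (0.309% to 0.323%) were left out, and the single gene Gm42418 held 15.2% to 18.3% of the gene counts. Reads were not reported to carry molecular identifiers. Symbols and positions came from GENCODE M21 on GRCm38, which named 30934 of the 31053 identifiers, and promoter windows came from RefSeq (GRCm38.p6).

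Counts were tested with edgeR 4.0.16 in R 4.3.3 (TMM normalization, quasi-likelihood test, genotype as the only term, two-sided, FDR 0.05, genes reaching 1 CPM in 4 or more libraries). CPM values are TMM-normalised. QuantSeq yields about a tag per transcript, so CPM was not divided by length and levels were not ranked between genes. Ratios within a library were compared by exact permutation tests. A filter of the study on multiply mapped reads could not be applied. The fit was tested on simulated data. There it recovered 29 of 100 genes changed by 0.5 on the log2 scale and 71 of 100 changed by 1, with 4 false calls. A gene that did not pass may thus still differ. DESeq2 1.42.0, other scalings and filters, 8 leave-one-out fits and a replicate block served as alternatives. The genes named were the 10 genes described, Ttc8, list genes past the threshold, 4 known partners (S100a4, S100a6, S100a11 and Plat) and the 3 genes most like Anxa2 and most like S100a10. Further genes, such as Anxa9, S100a8 and genes of a list that passed only an unadjusted p, were named after their values were seen. The genes and lists were chosen with earlier results of these data known. The results of some marker lists are not reported here.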

Additional observations from a re-analysis of the deposited data

Results flagged for a closer look

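In each group of 4 libraries, a library was marked where its gap to the nearest of the others, relative to the range of the group, passed Dixon's 95% critical value. Of 46 groups 4 were marked, beside 2.3 that chance gives on average at 5%. For Anxa6, Bbs8+/+ replicate 4 stood low at 155.6 CPM, with the other controls between 195.5 and 200.7 CPM. In the Bbs8-/- group of the same gene, replicate 3 stood high at 205.3 CPM, with the others between 188.9 and 190.8 CPM. For Anxa8, Bbs8+/+ replicate 2 stood high at 3.15 CPM from 8 counts, with the others between 0 and 0.350 CPM. The summed surface epithelium markers were at 134.1 CPM in Bbs8-/- replicate 3, with the other Bbs8-/- libraries between 102.9 and 108.1 CPM. What sets these libraries apart was not tested.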

How the results depend on the processing

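The number of the 10 genes called higher went from 1 to 0 in 12 of 17 alternatives. For Anxa2 the FDR was 0.0684 with library totals only, 0.0698 without a filter, 0.0842 in the likelihood ratio test, 0.129 after thinning to the smallest library, 0.0837 with the replicate block (log2 fold change 0.23), and 0.0664 to 0.135 over the 7 leave-one-out fits that lost it. The call held with DESeq2's size factors in edgeR (0.0438), filterByExpr (0.0344), DESeq2 (0.00738), without Bbs8+/+ replicate 3 (0.0428) and without Gm42418 and mitochondrial genes (0.0453). Leaving out each replicate in turn gave 0 to 1 higher genes among the 10, and 0 were lower in every alternative. Estimates changed sign for Anxa6 without Bbs8+/+ replicate 4 (leave-one-out range -0.0338 to 0.0854), Anxa7 without Bbs8+/+ replicate 1 (-0.0342 to 0.377) and S100a10 without Bbs8-/- replicate 2 (-0.177 to 0.0224), none of them called. The cause was not tested. The ratio of S100a10 to Anxa2 and the Anxa2 share kept their direction, with differences of -0.0707 to -0.0389 and of 3.51 to 4.38 points over the leave-one-out fits and -0.0552 and 3.90 points within the block. There p could not go below 0.0571 and 0.125, so these fits cannot show whether a call holds. Equal replicate numbers did not deviate together (correlations of -0.0295 to 0.0194), so no pairing by number was seen. Counting error can hide a weak pairing in such a check, so it cannot exclude one. DESeq2 gave no adjusted p for Anxa1, Anxa11 or Ttc8. Depth limits Anxa8 and Anxa11 most, and leaves wide intervals for Anxa1 and Anxa4.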

Other observations

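Over the 8 libraries, the genes with the profile most like that of Anxa2 were Pvalb (Pearson r = 0.988 on log2 CPM), Cirbp (0.984) and Chad (0.983), out of 6628 genes with a mean of at least 20 CPM. Pvalb encodes the calcium buffer parvalbumin, Cirbp a cold-inducible RNA-binding protein and Chad the matrix protein chondroadherin. Cirbp was at 48.7 ± 3.95 CPM in the controls and 93.4 ± 11.4 CPM in the knockouts, and Chad at 153 ± 10.5 and 195 ± 9.27 CPM (SD, n = 4). Both passed the threshold (log2 fold changes 0.94 and 0.36, FDR 2.4e-09 and 0.00338, edgeR), whereas Pvalb did not (0.24, FDR 0.160). The genes most like S100a10 were Mcfd2 (0.938), Pygb (0.919) and Mylk (0.917), none of which passed. These are the highest values of a search over all those genes, and the libraries share genotype and depth.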
